A study of Mus musculus with 4 samples.

Results

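Differentiating spermatogonia are the germ cells that have left the stem and progenitor pool of the testis and are committed to meiosis. The 6 genes grouped here under their name are *Kit*, *Sohlh1*, *Sohlh2*, *Dmrtb1*, *Dmrt1* and *Uchl1*, taken by gene name from the 55820 loci of the deposited table. All 6 were found, each once, and all 6 passed the filter on low counts that kept 20561 loci for testing. The data are RNA sequencing of whole testes of C57BL/6J males at P10 (postnatal day 10), with 2 libraries from mice labelled control and 2 from Mps1sKO mice. In the Mps1sKO mice, a *Stra8*-Cre driver, active in germ cells from early spermatogonia until preleptotene spermatocytes, removes floxed exons of *Mps1*, the gene of a spindle checkpoint kinase whose symbol in the table is *Ttk*. The labels do not give the alleles of the control mice, nor whether a library is 1 mouse, so p-values measure the spread between these libraries.

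*Kit* encodes the receptor tyrosine kinase that responds to KIT ligand, which Sertoli cells make, and its appearance on the surface marks the switch from undifferentiated to differentiating spermatogonia. SOHLH1 and SOHLH2 are germ cell basic helix-loop-helix (bHLH) factors that dimerize, bind E-boxes and are needed for KIT-positive spermatogonia to form. DMRT1 and DMRTB1 belong to the DMRT family of DM domain factors, of which DMRT1 keeps spermatogonia from entering meiosis too early and DMRTB1, also called DMRT6, acts late in the spermatogonial program. UCHL1 is a ubiquitin carboxy-terminal hydrolase that is abundant in spermatogonia. *Dmrt1* is also expressed in Sertoli cells, *Kit* also in Leydig and mast cells, and *Uchl1* also in neurons. RNA of whole testes does not tell how much of each level came from differentiating spermatogonia, from germ cells of other stages or from somatic cells.

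The 4 libraries held 23311689 to 28607746 counts on loci. *Ttk* stood at 27.9 and 32.6 CPM (counts per 1000000 counts of a library, with edgeR's TMM factors) in the control libraries against 13.0 and 12.2 CPM in the Mps1sKO libraries. This is 41.7% of control (edgeR's quasi-likelihood test, adjusted p = 0.0461), so *Ttk* was lower in the libraries labelled Mps1sKO. Counts per gene do not single out the floxed exons. Germ cell, Sertoli and Leydig cell markers were all detected, as in a testis. The summed level of 19 germ cell genes of many stages, such as *Ddx4* and *Dazl*, was 2335 and 2809 CPM in the control libraries against 2147 and 1646 CPM in the Mps1sKO libraries. The summed level of 19 Sertoli cell genes was 8826 and 8676 CPM in the control libraries against 10869 and 10674 CPM in the Mps1sKO libraries. In RNA from a whole testis, fewer cells of a type and less RNA per cell cannot be told apart. This holds for *Ttk* and for every difference below.

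All 6 genes had a lower mean in Mps1sKO testes. *Dmrtb1* and *Sohlh1* stood at 68.8% and 71.4% of control, *Uchl1* and *Sohlh2* at 79.0% and 82.5%, *Kit* at 84.9% and *Dmrt1* at 95.9%, as estimated by edgeR. Differences between the genes were not tested. Their 95% intervals overlapped, except those of *Sohlh1* (62.0% to 82.3%) and *Dmrt1* (82.7% to 111%) with each other. For *Sohlh1*, *Sohlh2*, *Dmrtb1* and *Uchl1*, 4 of the 6 genes, both Mps1sKO libraries lay below both control libraries, which held for 21.1% of all tested loci, while for *Kit* and *Dmrt1* the groups overlapped. With p adjusted over all tested loci by the Benjamini-Hochberg method, 0 of the 6 genes passed 0.05 in edgeR's two-sided quasi-likelihood test, against 0.0292% of all tested loci. At an unadjusted p below 0.05, 4 of the 6 were lower, against 5.37% of all tested loci lower and 9.3% in either direction at that threshold. With DESeq2, 0 of the 6 passed an adjusted p of 0.05, as 0.24% of the loci with such a p did. It gave 3 at an unadjusted p below 0.05, where 1.69% of the loci it tested were lower. That share is over 35262 loci, not filtered for low counts, so it cannot be set against the 5.37% of edgeR's 20561 loci. With limma-voom, 0 of the 6 passed an adjusted p of 0.05, where 3 of all tested loci were lower and 0 higher. The study called genes at a 1.5-fold change and a p under 0.01, and 0 of the 6 genes met both cut-offs with edgeR or DESeq2, against 0.681% of loci lower with edgeR. The median log2 fold change of the 6 genes was −0.31, against 0.00027 over all tested loci.

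**Figure D1:**
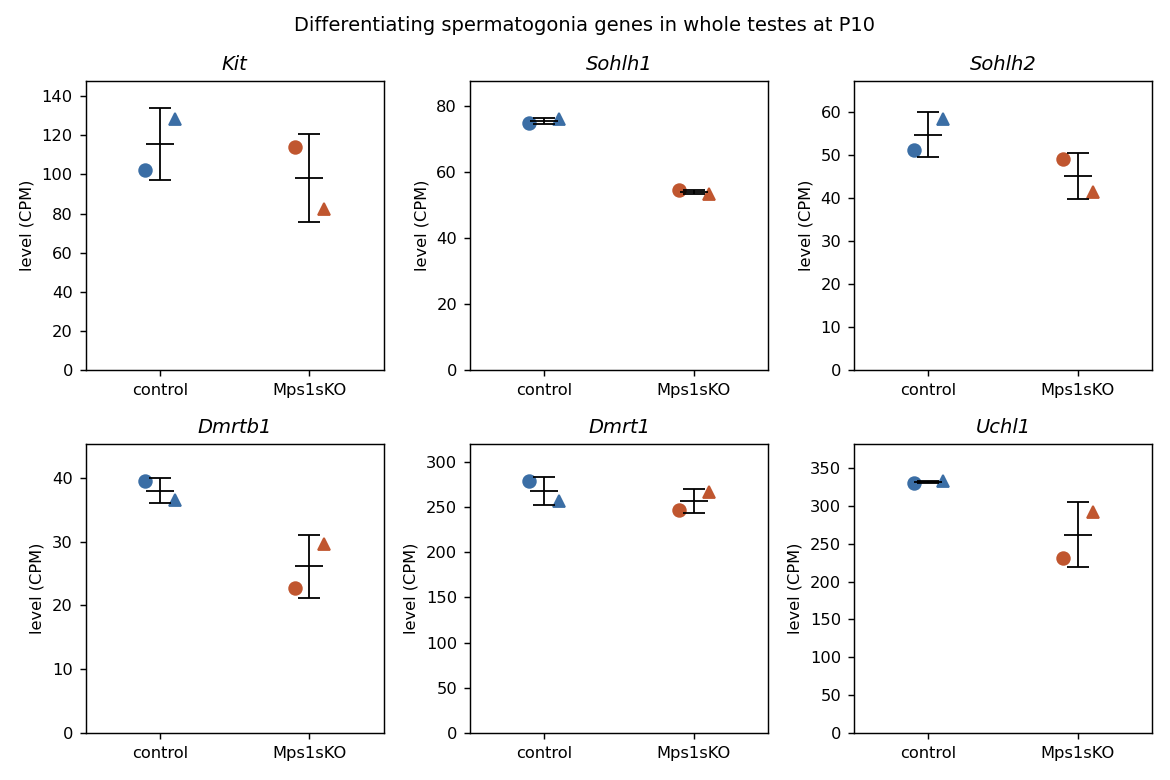
Level of each gene in CPM (vertical axis, from 0) in the control and Mps1sKO libraries. Circles are replicate 1, triangles replicate 2, and the black bars give the mean ± SD of 2 libraries. The 2 colours separate for *Sohlh1*, *Sohlh2*, *Dmrtb1* and *Uchl1* and overlap for *Kit* and *Dmrt1*.

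Levels can be compared between genes only per gene length, and the deposited FPKM values (fragments scaled to gene length and library size) give that scale. *Uchl1* was the most abundant of the 6 genes in every library, with 201 and 202 FPKM in control and 141 and 179 FPKM in Mps1sKO testes, and its mean over the 4 libraries ranked 134 among the 20561 tested loci. *Dmrt1* followed in every library, with 94.8 to 106 FPKM and rank 340. *Sohlh1* was the third in every library, with 57.6 and 58.7 FPKM in control and 42.0 and 41.4 FPKM in Mps1sKO testes.

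The lower places were closer together. *Sohlh2* was the fourth, at 17.5 to 24.6 FPKM, and *Sohlh1* was at 2.68 and 2.39 times the level of its dimer partner in the control libraries against 2.04 and 2.37 times in the Mps1sKO libraries. *Dmrtb1* had 18.8 and 17.4 FPKM in control and 10.8 and 14.2 FPKM in Mps1sKO testes. *Kit* had 11.4 and 14.3 FPKM in control and 12.7 and 9.22 FPKM in Mps1sKO testes, so the order of *Dmrtb1* and *Kit* was reversed in Mps1sKO replicate 1 alone, and in Mps1sKO testes these neighbours did not differ beyond their spread. The FPKM of *Kit* rests on a length of 8911 bases, the union of the exons of its 8 annotated transcripts, and counts per gene do not tell its full-length form from shorter ones.

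**Figure D2:**
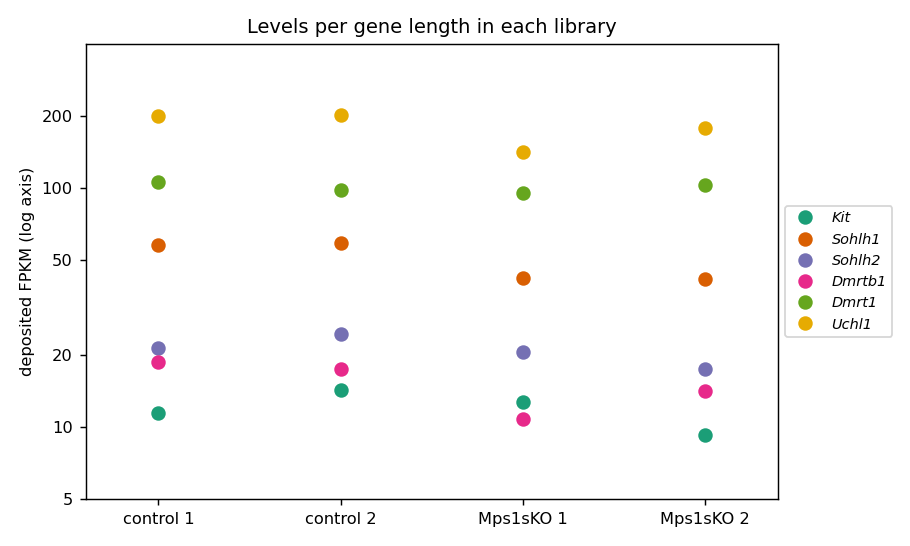
Deposited FPKM of the 6 genes (vertical log axis) in each of the 4 libraries (horizontal axis), with 1 point per gene and library. *Uchl1*, *Dmrt1*, *Sohlh1* and *Sohlh2* keep their order in every library, and *Kit* lies above *Dmrtb1* only in Mps1sKO replicate 1.

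Among the transcription factors, *Sohlh1* had the tightest values. Its gene (ENSMUSG00000059625) lies on the minus strand of chromosome 2 from 25842995 to 25847248 on GRCm38, with 1 annotated transcript of 8 exons. Its level was 74.9 and 76.2 CPM in the control libraries against 54.5 and 53.5 CPM in the Mps1sKO libraries. The libraries of 1 genotype thus differed by at most 1.02-fold, and both Mps1sKO libraries were well below both control libraries. The means were 75.5 ± 0.902 CPM (SD, n = 2) and 54.0 ± 0.699 CPM (SD, n = 2). The log2 fold change was −0.49 (95% interval −0.69 to −0.28), which is 62.0% to 82.3% of control. Its unadjusted p of 0.000651 ranked 19 among the 20561 loci, and its adjusted p was 0.494 from edgeR and 0.0613 from DESeq2. When loci with low counts were not filtered out, edgeR called 1.11% of 35262 loci, and *Sohlh1* was among them with an adjusted p of 0.00424. Leaving out any 1 library kept the log2 fold change between −0.50 and −0.47.

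*Sohlh2*, the partner of *Sohlh1*, lies on the plus strand of chromosome 3 from 55182028 to 55209957 (ENSMUSG00000027794, 11 exons). It had 51.2 and 58.5 CPM in the control libraries against 49.1 and 41.5 CPM in the Mps1sKO libraries. The groups did not overlap, but control replicate 1 and Mps1sKO replicate 1 lay close to each other, and the 4 libraries had the same order as the summed germ cell genes, with control replicate 2 highest and Mps1sKO replicate 2 lowest. The log2 fold change was −0.28 (95% interval −0.56 to −0.00038, adjusted p = 0.537 from edgeR). Its unadjusted p was 0.0498 with edgeR and 0.0679 with DESeq2. Leaving out Mps1sKO replicate 2 gave −0.16 and leaving out control replicate 2 gave −0.18, while it was −0.37 and −0.40 when the first replicate of control or of Mps1sKO was left out.

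*Dmrtb1* had the lowest estimate of the 6 genes. It lies on the minus strand of chromosome 4 from 107676290 to 107684230 (ENSMUSG00000028610), with 2 protein-coding transcripts of up to 4 exons. Its level was 39.4 and 36.6 CPM in the control libraries against 22.7 and 29.6 CPM in the Mps1sKO libraries. Both Mps1sKO libraries lay below both control libraries, and Mps1sKO replicate 1 was the lowest. The means were 38.0 ± 2.02 CPM (SD, n = 2) and 26.1 ± 4.90 CPM (SD, n = 2). The log2 fold change was −0.54 (95% interval −0.86 to −0.21), with an unadjusted p of 0.0054 and an adjusted p of 0.494 from edgeR. Without the filter on low counts the adjusted p from edgeR was 0.00617, and DESeq2 gave 0.212. The estimate was −0.36 without Mps1sKO replicate 1 and −0.75 without Mps1sKO replicate 2. The smallest number of counts behind any value of the 6 genes was the 525 of *Dmrtb1* in Mps1sKO replicate 1, where counting alone gives an SD of 4.36%, so the 1.31-fold gap between the Mps1sKO libraries was larger than counting error.

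*Dmrt1*, the other DM domain gene, lies on the plus strand of chromosome 19 from 25505618 to 25604329 (ENSMUSG00000024837). It had 278 and 257 CPM in the control libraries against 247 and 266 CPM in the Mps1sKO libraries. The groups overlapped, and Mps1sKO replicate 2 lay above control replicate 2. The log2 fold change was −0.06 (95% interval −0.27 to 0.15, adjusted p = 0.863 from edgeR), so these libraries allow a level from 82.7% to 111% of control. Without control replicate 1 the estimate was −0.0029, and without control replicate 2 it was −0.12. *Dmrt1* is also a Sertoli cell gene, and the summed Sertoli cell genes were higher in both Mps1sKO libraries. Their part in the level of *Dmrt1* was not tested. The ratio of *Dmrt1* to *Dmrtb1* in FPKM was 5.66 and 5.64 in the control libraries against 8.76 and 7.22 in the Mps1sKO libraries. Ratios were taken for several pairs of these genes. The groups did not overlap for this pair, for *Sohlh1* to *Sohlh2* or for *Uchl1* to *Dmrt1*. They overlapped for *Uchl1*, *Dmrt1* and *Sohlh2* to *Kit*, and for *Sohlh1* and *Sohlh2* to *Dmrtb1*. For *Sohlh1* to *Sohlh2* the gap was narrow, with 2.39 in control replicate 2 against 2.37 in Mps1sKO replicate 2. *Uchl1* to *Dmrt1* was 1.89 and 2.06 in the control libraries against 1.49 and 1.74 in the Mps1sKO libraries. An exact permutation test of 2 libraries against 2 cannot give a p below 0.333, even without overlap, so none is given for these ratios. No share over other pairs of genes was taken, so these separations are no result about the 6 genes.

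Since SOHLH1 and SOHLH2 bind E-boxes, the 250 bases before the transcription start of these genes were searched for the E-box letters CANNTG, for their palindromic form CACGTG and for ACATTGT, letters within the DMRT1 motif, on both strands. Sequences are those of RefSeq on GRCm38.p6, where 5 of the 6 genes matched by symbol. *Kit* and *Dmrtb1* had 2 starts there, and the start nearest the annotated start of the gene was used. The stretches of *Kit*, *Sohlh2* and *Uchl1* end inside the annotated gene. That of *Kit* runs from 75574737 to 75574986, and the annotated gene starts at 75574916. Of 32851 promoters of that length in the table, 66.2% held CANNTG, 6.02% CACGTG and 2.56% ACATTGT. *Sohlh1* held 5 matches to CANNTG, at 231, 211, 192, 134 and 70 bases before its start, and the first 3 of them read CACGTG. *Dmrtb1* held 2 matches and *Sohlh2* held 1, while *Kit* and *Uchl1* held 0 and none of the 5 promoters held ACATTGT. A match to CANNTG in 3 of the 5 promoters is near the 66.2% of all promoters and is no result about these genes. The promoters of the 3 genes with a match are shown with the CANNTG letters in capitals. A match is a description of sequence and not a binding site.
Sohlh1 (chr2:25847249-25847498, minus strand): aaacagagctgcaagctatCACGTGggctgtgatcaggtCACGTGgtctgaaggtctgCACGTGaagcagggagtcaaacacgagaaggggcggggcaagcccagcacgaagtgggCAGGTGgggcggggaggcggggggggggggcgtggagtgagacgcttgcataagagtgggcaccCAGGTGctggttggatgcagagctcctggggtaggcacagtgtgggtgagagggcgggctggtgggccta
Sohlh2 (chr3:55181794-55182043, plus strand): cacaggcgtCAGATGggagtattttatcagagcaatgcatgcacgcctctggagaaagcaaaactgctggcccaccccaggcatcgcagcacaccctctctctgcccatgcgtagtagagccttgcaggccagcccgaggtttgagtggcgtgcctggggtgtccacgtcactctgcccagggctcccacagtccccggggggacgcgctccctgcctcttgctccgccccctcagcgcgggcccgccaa
Dmrtb1 (chr4:107684231-107684480, minus strand): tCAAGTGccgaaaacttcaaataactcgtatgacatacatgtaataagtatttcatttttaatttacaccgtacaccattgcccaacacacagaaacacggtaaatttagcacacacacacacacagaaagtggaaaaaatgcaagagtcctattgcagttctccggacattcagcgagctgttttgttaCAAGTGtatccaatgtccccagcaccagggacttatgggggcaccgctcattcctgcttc

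The *Sohlh1* promoter was the one with the most matches, 5 against a median of 1 over all promoters. Its *Sohlh2* counterpart carried a single match near its far end, 241 bases before the start. The 2 matches of *Dmrtb1* had the same letters, CAAGTG, and lay 249 and 60 bases before the start, in a promoter of 42.4% GC where those of *Sohlh1* and *Sohlh2* had 64.4% and 64.8%. In *Kit*, 70.8% of the 250 bases were G or C.

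*Kit*, the receptor itself, showed the widest spread within a genotype. Its gene (ENSMUSG00000005672) lies on the plus strand of chromosome 5 from 75574916 to 75656722, and its coding transcripts have up to 21 exons. The level was 102 and 128 CPM in the control libraries against 114 and 82.3 CPM in the Mps1sKO libraries. Mps1sKO replicate 1 lay between the control libraries, and Mps1sKO replicate 2 lay below both. The libraries of 1 genotype differed by 1.25-fold in control and by 1.38-fold in Mps1sKO testes, where counting error is at most 2.13%. The estimate was −0.24 on the log2 scale (95% interval −0.63 to 0.16, adjusted p = 0.677 from edgeR), which allows a level from 64.8% to 111% of control. It was −0.019 without Mps1sKO replicate 2 and −0.49 without Mps1sKO replicate 1, so the size of the difference rests on the Mps1sKO library that is used. It was −0.39 without control replicate 1 and −0.065 without control replicate 2.

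Mast cells are among the other cells that carry KIT. Of the 8 mast cell genes, *Fcer1a* had 0 counts in all 4 libraries and *Ms4a2* had at most 2. The 5 genes that could be tested all had a higher estimate, with a median log2 fold change of 0.37. None of the 5 passed an unadjusted p of 0.05 with edgeR. The 8 genes summed to 32.2 and 34.4 CPM in the control libraries against 42.7 and 32.5 CPM in the Mps1sKO libraries. Most of this sum came from *Hdc*, which other cells also express. The 9 Leydig cell genes summed to 893 and 826 CPM in the control libraries against 925 and 865 CPM in the Mps1sKO libraries. Their part in the level of *Kit* was not tested.

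*Uchl1* lies on the plus strand of chromosome 5 from 66676091 to 66687234 (ENSMUSG00000029223, 1 protein-coding transcript of 9 exons). It had 331 and 332 CPM in the control libraries against 231 and 292 CPM in the Mps1sKO libraries. The control libraries were within 1.01-fold of each other, both Mps1sKO libraries were lower, and Mps1sKO replicate 1 was the lowest, as it was for *Dmrtb1*. The means were 331 ± 1.2 CPM (SD, n = 2) and 262 ± 42.9 CPM (SD, n = 2). The estimate was −0.34 on the log2 scale (95% interval −0.62 to −0.064), with an unadjusted p of 0.0221 and an adjusted p of 0.505 from edgeR. It was −0.18 without Mps1sKO replicate 1, −0.52 without Mps1sKO replicate 2 and −0.35 and −0.34 without control replicates 1 and 2. The antisense gene *Uchl1os* overlaps *Uchl1* by 408 bases and had 29 to 59 counts in a library, against 5361 to 9585 for *Uchl1*. The strand setting of the counting is not given in the sources used here. The 9 peripheral neuron genes summed to 155 and 164 CPM in control and to 187 and 178 CPM in Mps1sKO testes, most of it from the tubulin gene *Tubb3*, and 5 of the 7 tested had a higher estimate. Of the 9 genes, 2 had at most 3 counts in every library, among them *Th* with at most 2. The part of the neuron genes in the level of *Uchl1* was not tested.

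**Figure D3:**
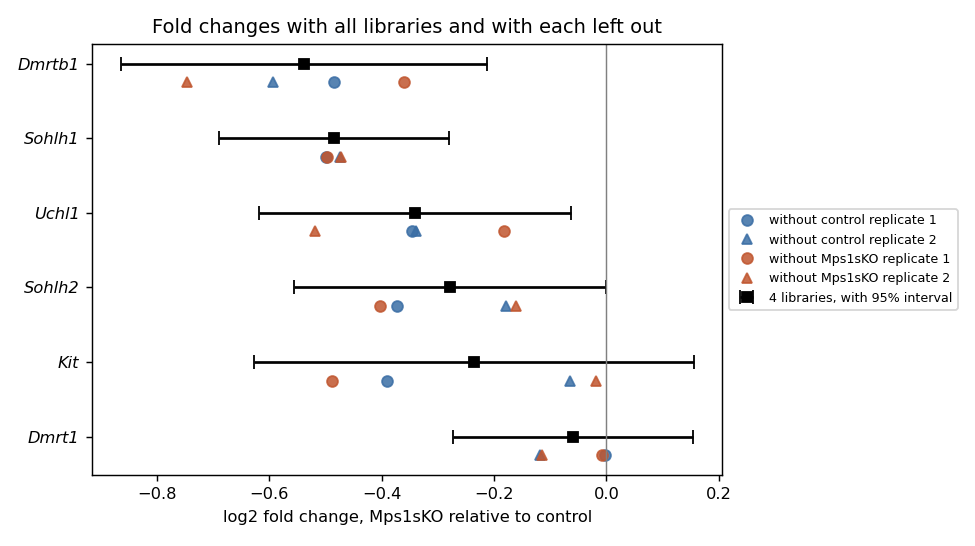
Log2 fold change of each gene in Mps1sKO relative to control testes (horizontal axis). Squares with bars give the estimate from 4 libraries and its 95% interval from edgeR, and coloured symbols give the estimate with 1 library left out. The interval of *Kit* and that of *Dmrt1* include 0, *Sohlh1* moves least, and *Dmrtb1*, *Uchl1* and *Kit* move most with the choice of Mps1sKO library.

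The summed level of the 19 germ cell genes was lower in the Mps1sKO libraries, so each gene was also set against this sum in the same library. The sum does not stand for germ cells of every stage. The median log2 fold change was −0.41 for these 19 genes. It was −0.13 for undifferentiated spermatogonia genes and −0.58 for early meiotic prophase genes, so the ratios depend on the genes summed. On this scale, *Kit* stood at 4.39% and 4.57% of the germ cell sum in the control libraries against 5.31% and 5.003% in the Mps1sKO libraries, with both Mps1sKO values above both control values. *Sohlh2* stood at 2.19% and 2.08% in control and at 2.29% and 2.52% in Mps1sKO testes, again without overlap. Of all tested loci, 60.2% had both Mps1sKO libraries above both control libraries on this scale and 1.99% had both below, so the 2 of 6 genes that lay above are no result about these genes. The log2 ratio of the group means was 0.20 for *Kit* and 0.17 for *Sohlh2*.

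For the other 4 genes the groups overlapped on this scale. *Sohlh1* stood at 3.21% and 2.71% of the germ cell sum in control and at 2.54% and 3.25% in Mps1sKO testes, a log2 ratio of −0.033. *Dmrtb1* stood at 1.69% and 1.30% in control and at 1.06% and 1.80% in Mps1sKO testes, a log2 ratio of −0.068. In both genes, Mps1sKO replicate 1 was the lowest and Mps1sKO replicate 2 the highest of the 4 libraries. *Uchl1* stood at 14.2% and 11.8% in control and at 10.8% and 17.7% in Mps1sKO testes, with a log2 ratio of 0.13 that was −0.27 without Mps1sKO replicate 2. *Dmrt1* stood at 11.9% and 9.15% in control and at 11.5% and 16.2% in Mps1sKO testes, a log2 ratio of 0.39. When *Ddx4* and *Dazl* alone formed the sum, *Kit* still had both Mps1sKO values above both control values and *Sohlh2* did not, against 51.3% of all tested loci above and 2.22% below. These ratios carry no test, since their spread rests on 2 libraries in each group.

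**Figure D4:**
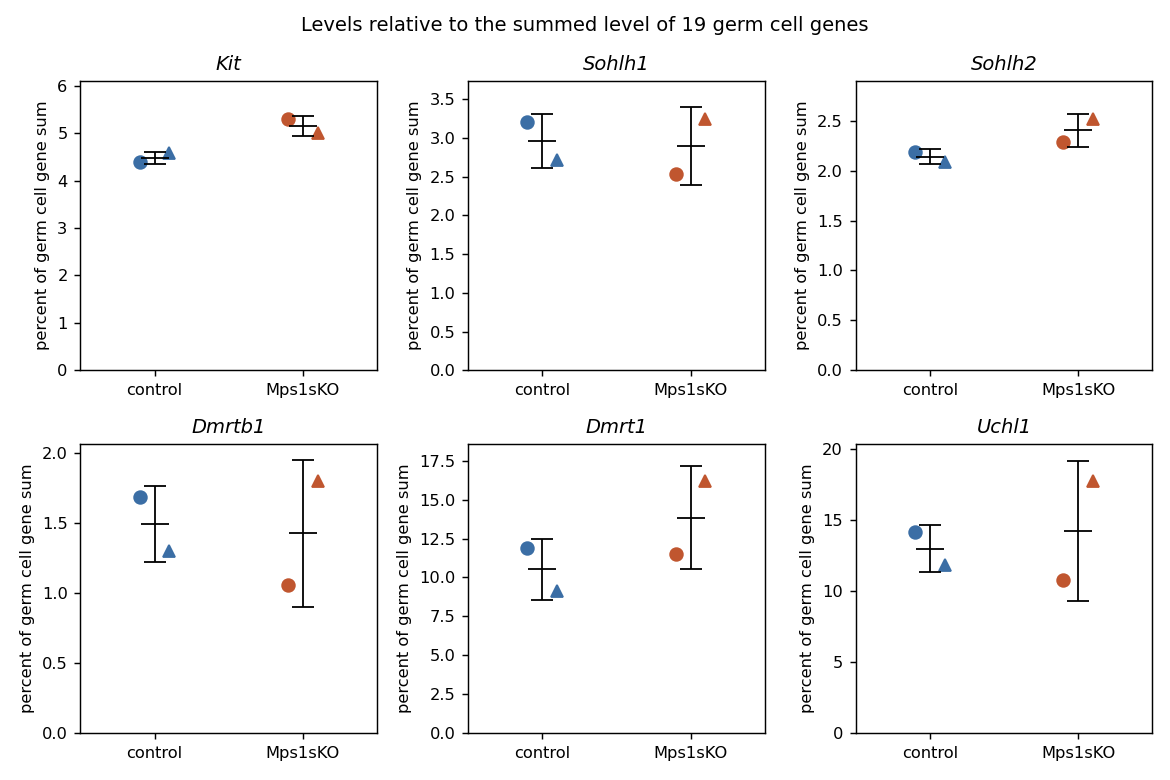
Level of each gene as a percent of the summed level of 19 germ cell genes in the same library (vertical axis, from 0). Symbols and bars are as in the plot of CPM, with circles for replicate 1, triangles for replicate 2 and mean ± SD of 2 libraries. *Kit* and *Sohlh2* lie higher in both Mps1sKO libraries, as 60.2% of all tested loci do, and the other 4 genes overlap.

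The ligand of KIT and the molecules that carry its signal showed no lower level as a group. *Kitl*, which encodes KIT ligand and is itself a Sertoli cell gene, had 324 and 265 CPM in the control libraries against 386 and 396 CPM in the Mps1sKO libraries. Both Mps1sKO libraries lay above both control libraries, which held for 20.3% of all tested loci. The estimate was 0.41 ± 0.111 on the log2 scale with its standard error (edgeR, adjusted p = 0.494), while the receptor gene overlapped between the genotypes. Of 34 KIT signalling genes, *Kit* and *Kitl* included, all were tested and 23 had a higher and 11 a lower estimate, with a median log2 fold change of 0.091. At an unadjusted p below 0.05, 3 were higher, namely *Kitl*, *Sos1* and *Mapk3*, against 3.92% of all tested loci, and 0 were lower. With edgeR, 0 passed an adjusted p of 0.05. *Sos1*, a nucleotide exchange factor for RAS, had a log2 fold change of 0.26, and *Mapk3*, which encodes the kinase ERK1, had 0.21. Among the genes of the PI3-kinase, AKT and mTOR arm, the log2 fold changes were 0.024 for *Pik3ca*, −0.052 for *Pik3cd*, 0.071 for *Pik3r1*, −0.10 for *Pdpk1*, 0.10 for *Akt1*, −0.069 for *Mtor*, −0.017 for *Rps6kb1* and 0.0079 for *Rps6*, and in each of them the groups overlapped. These genes are used by many cells of the testis.

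Among the 5 class III receptor tyrosine kinases, the family of *Kit*, 0 passed an unadjusted p of 0.05 and the median log2 fold change was 0.039. *Pdgfra* and *Pdgfrb*, receptors of interstitial and peritubular cells, had log2 fold changes of 0.14 and 0.29, and *Csf1r*, the macrophage receptor, had −0.13. *Kit* was the lowest of the family.

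Within the DMRT family, *Dmrtb1* and *Dmrtc2* were the 2 of 11 tested genes with an unadjusted p below 0.05, both lower, against 5.37% of all tested loci. *Dmrtc2*, also called DMRT7 and known from pachytene spermatocytes, had 5.01 and 6.28 CPM in the control libraries against 3.75 and 3.47 CPM in the Mps1sKO libraries, and its estimate was −0.65 on the log2 scale (edgeR, adjusted p = 0.494). *Dmrta1*, at 37.5 to 43.0 FPKM, was above *Dmrtb1* and below *Dmrt1* in every library, with a log2 fold change of 0.097. *Dmrtc1a*, *Dmrtc1b*, *Dmrtc1c1* and *Dmrtc1c2* are near-identical copies whose reads the counting could split, and their values are uncertain. The family median was −0.11, and it was −0.21 without Mps1sKO replicate 2.

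Beside *Sohlh1* and *Sohlh2*, the list of 6 germ cell bHLH genes held *Tcfl5*, a factor of spermatocytes, with 41.6 and 43.1 CPM in the control libraries against 33.2 and 27.3 CPM in the Mps1sKO libraries. Its log2 fold change of −0.49 was the same as that of *Sohlh1* to 2 decimals (adjusted p = 0.494 from edgeR for both). *Figla*, the oocyte relative, was at 2.72 to 4.02 CPM, *Neurog3* of undifferentiated spermatogonia had a log2 fold change of −0.18, and *Msgn1* was below the filter. Of the 5 tested genes, 3 were lower at an unadjusted p below 0.05, against 5.37% of all tested loci, with *Sohlh1* and *Sohlh2* among the 3, and the median was −0.28, or −0.44 without Mps1sKO replicate 1.

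In the family of *Uchl1*, *Uchl3* and *Uchl5* had log2 fold changes of −0.20 and −0.22, and *Bap1*, a chromatin-bound member, had −0.007. *Uchl1* was the only one of the 5 with an unadjusted p below 0.05, a threshold that 9.3% of all tested loci passed. *Uchl3* overlapped between the groups, with 30.4 and 36.4 CPM in control against 27.3 and 30.9 CPM in Mps1sKO testes. The family median was −0.20, which was −0.065 without control replicate 2 and −0.30 without control replicate 1.

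Of 10 other genes known from differentiating spermatogonia, 7 were lower and 1 was higher at an unadjusted p below 0.05, against 5.37% of all tested loci lower and 3.92% higher, and their median log2 fold change was −0.42. For *Stra8*, the retinoic acid responsive gene of differentiation and meiotic entry, the levels were 112 and 151 CPM in control and 86.7 and 65.5 CPM in Mps1sKO testes. *Rhox13*, a homeobox gene of differentiating spermatogonia, had 17.9 and 22.8 CPM in control and 12.9 and 12.2 CPM in Mps1sKO testes. *Crabp1*, which encodes a retinoic acid binding protein, had 62.9 and 72.7 CPM in control and 51.2 and 41.7 CPM in Mps1sKO testes. Both Mps1sKO libraries lay below both control libraries in 8 of the 10 genes, these 3 among them, against 21.1% of all tested loci. The log2 fold changes of the 3 were −0.79, −0.70 and −0.55. The retinoic acid receptor gene *Rarg*, the RNA-binding protein gene *Elavl2*, the TFIID subunit gene *Taf4b* and *Prdm9*, which marks recombination sites, had −0.37, −0.46, −0.32 and −0.76. *Ccnd2*, a cyclin of spermatogonia that is also found in somatic cells, was the higher one, with 215 and 182 CPM in control and 254 and 235 CPM in Mps1sKO testes. *Dnmt3b*, a DNA methyltransferase, overlapped between the groups, with a log2 fold change of −0.13. With edgeR, 0 of the 10 passed an adjusted p of 0.05. The 10 genes are not all particular to this stage. *Nanos3* also stands in the list of germ cells of many stages and *Prdm9* in that of early meiotic prophase.

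Among the germ line lists, the median of the 6 genes, −0.31, lay between those of undifferentiated spermatogonia and of early meiotic prophase. The 10 other genes of differentiating spermatogonia had a median of −0.42, so this place depends on the genes listed. The median was −0.13 for 24 tested undifferentiated spermatogonia genes, of which 14 had a lower and 10 a higher estimate. Of these, 4 were lower at an unadjusted p below 0.05, where 5.37% of all tested loci were lower. In that list, the marker *Zbtb16*, which encodes PLZF, had −0.36, *Lin28a* had −0.35 and the surface gene *Cd9*, which is not restricted to germ cells, had 0.13. The 19 germ cell genes of many stages all had a lower estimate, with a median of −0.41, and 17 of them had an unadjusted p below 0.05, against the same 5.37%. Of these, *Dazl* had −0.40, *Taf7l* −0.56 and *Mael* −0.51. The 27 early meiotic prophase genes also all had a lower estimate, with a median of −0.58 and 22 at an unadjusted p below 0.05, again against 5.37%. *Sycp1*, *Smc1b* and *Syce2*, which encode parts of the synaptonemal complex and of meiotic cohesin, had −0.60, −0.56 and −0.55. Some genes stand in 2 of the lists described, namely *Neurog3*, *Nanos3*, *Prdm9*, *Kitl* and *Csf1r*, and the family lists include the members of each family among the 6 genes. With edgeR, 0 genes of these 3 lists passed an adjusted p of 0.05.

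The medians of the somatic lists lay above or near 0. Of 19 Sertoli cell genes, 17 had a higher estimate, with a median of 0.32 and 7 higher at an unadjusted p below 0.05 against 3.92% of all tested loci, and *Aard*, *Clu* and *Inha* had 0.33, 0.25 and 0.38. The medians were 0.18 for 9 Leydig cell genes, −0.083 for peritubular myoid cells (7 genes), −0.017 for macrophages (10 genes), 0.066 for endothelium (9 genes), 0.37 for 5 tested mast cell genes, 0.18 for 7 tested peripheral neuron genes and 0.077 for 5 tested red blood cell genes. Of these 7 lists only that of peripheral neurons held a gene with an unadjusted p below 0.05, *Nefm*, which was higher. With edgeR, 0 genes of all 8 somatic lists passed an adjusted p of 0.05. The part of the cell makeup of the testes in the levels of the 6 genes was not tested.

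**Figure D5:**
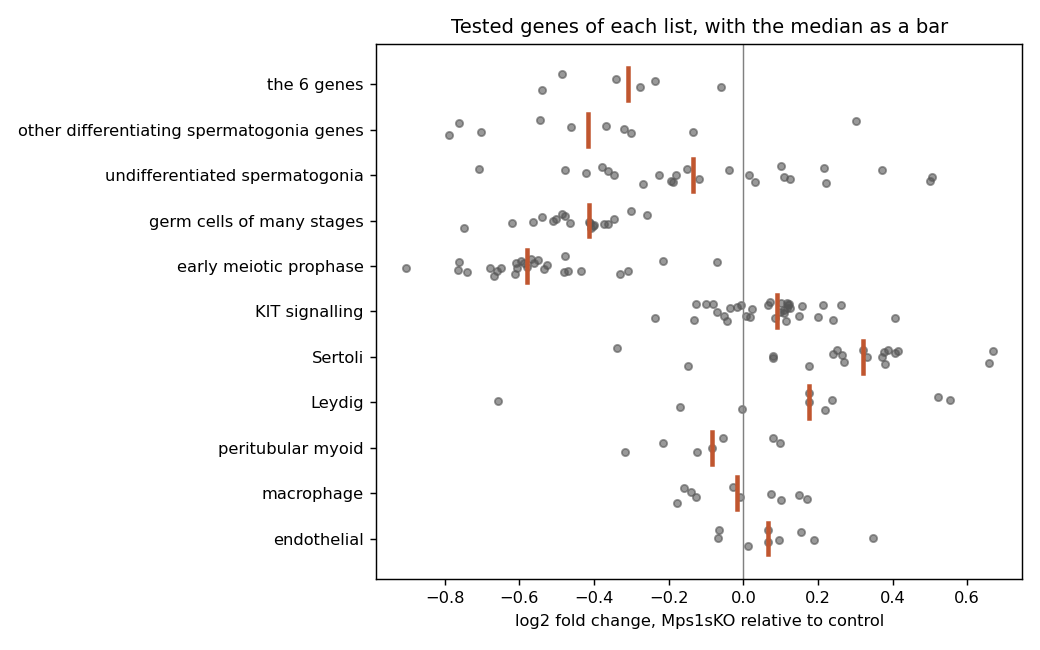
Log2 fold change in Mps1sKO relative to control testes (horizontal axis) of every tested gene of 11 lists, with 1 point per gene and the median as a bar. The 6 genes have a median of −0.31 and the other differentiating spermatogonia genes −0.42. Undifferentiated spermatogonia genes have −0.13, early meiotic prophase genes −0.58 and Sertoli genes 0.32.

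The genes with the most similar pattern over the 4 libraries were sought by the distance between log2 CPM values after subtracting each gene's mean, among 3605 annotated genes of at least 4 log2 CPM that spanned at least 0.3. For *Kit* it was the sorting receptor gene *Sorl1* at a distance of 0.017, for *Sohlh1* *Rims3* at 0.067, for *Sohlh2* the mitotic kinesin gene *Kif20a* at 0.021, for *Dmrtb1* *Gm10443* at 0.046, for *Dmrt1* *Pstk* at 0.098 and for *Uchl1* the ribosomal protein gene *Rpl32* at 0.043. *Kif20a* had 70.3 and 81.4 CPM in control and 66.9 and 56.9 CPM in Mps1sKO testes. To the mean profile of the 6 genes, the closest were *Alyref*, *Bola2*, *Ccnb1*, *Fbln1* and *Efnb3*, at 0.022 to 0.039. *Ccnb1*, the gene of the mitotic cyclin B1, had 110 and 115 CPM in control and 90.8 and 92.6 CPM in Mps1sKO testes. With 4 libraries such closeness describes these values only.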

How the data were processed

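The authors sequenced RNA of whole testes on an Illumina NovaSeq platform from NEBNext Ultra libraries. The submitters' processing notes name HISAT2 2.0.5, featureCounts, DESeq2 1.16.1 and mm10. The authors deposited 1 table with raw counts per locus, FPKM values and gene lengths. The deposited FPKM equal the count over the gene length and over a library size scaled with DESeq2 size factors. Coordinates of the 6 genes matched an annotation on GRCm38.

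Samples were grouped by the labels. Counts were tested on genotype with edgeR 4.0.16 in R 4.3.3 (filterByExpr, TMM, quasi-likelihood F test, two-sided, Benjamini-Hochberg over 20561 loci). The common biological coefficient of variation was 0.106. Standard errors are the log2 fold change over the square root of F. The total counts on loci were 23311689 to 28607746 per library. Scripts were tested on simulated data.

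The members and 17 other gene lists were chosen with earlier results of these data known, so lists carry no test. Of the list symbols, 2 were matched through RefSeq synonyms and 1 was not matched. The text could name the 6 members, *Ttk*, genes of the pathway, family and other differentiation lists, the 3 genes of highest mean FPKM of each other list, and the nearest profiles. *Fcer1a*, *Ms4a2*, *Th* and *Uchl1os* were named after their values were seen. Alternatives were DESeq2 1.42.0, limma-voom (limma 3.58.1), other normalization (DESeq2 size factors, or library size alone), other filters (none, or a minimum of 10 counts in each library), robust dispersion, a replicate block, annotated genes alone, leaving out each library, and *Ddx4* plus *Dazl* as the germ cell sum. A crossed block was added after seeing the data.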

Additional observations from a re-analysis of the deposited data

How the results depend on the processing

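Across the alternatives, 373 values kept their direction and side of the threshold or stayed within the spread, 65 moved and 2 became called. Without the filter on low counts, *Sohlh1* (−0.48) and *Dmrtb1* (−0.54) were called, so that 2 of the 6 genes passed, beside 251 loci lower and 139 higher at an adjusted p below 0.05 and 339 lower and 135 higher at the study's cut-offs. With 4 libraries, 6 loci were lower and 0 higher at an adjusted p below 0.05 in edgeR (807 higher at an unadjusted p below 0.05), and 140 lower and 30 higher at the cut-offs. DESeq2 gave 30 lower and 7 higher, and a minimum of 10 counts, limma-voom and annotated genes alone each gave 3 lower. The replicate numbers share no stated litter or day, and same-numbered libraries deviated with r = −0.19 across 20561 loci. The replicate block gave 2 loci lower and changed the call of none of the 6 genes (adjusted p from edgeR 0.915 to 0.977), while that of *Ttk* was 0.224. Crossed pairing, chosen after seeing the data, called 3 of the 6 genes, 304 loci lower and 246 higher, and 71 higher at the cut-offs. With library size alone, the peritubular median was −0.10 and the endothelial median 0.045, which was 0.072 with DESeq2 and 0.060 with a minimum of 10 counts.

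Leaving out each library, with a lone library assumed to vary like the other group, gave 0 of the 6 genes at an adjusted p below 0.05, 3 to 5 at an unadjusted p below 0.05 and 0 to 1 at the cut-offs, the 1 being *Dmrtb1* without control replicate 2 or without Mps1sKO replicate 2. Over all loci it gave 6 to 76 lower and 2 to 35 higher at an adjusted p below 0.05, and 78 to 296 lower and 65 to 172 higher at the cut-offs. The medians ranged from −0.38 to −0.26 for the 6 genes, 0.026 to 0.12 for KIT signalling, −0.11 to 0.17 for class III receptors, −0.21 to −0.12 for DMRT, −0.44 to −0.16 for bHLH, −0.30 to −0.065 for the UCHL1 family, −0.58 to −0.28 for other differentiation genes, −0.22 to −0.048 for undifferentiated spermatogonia, −0.65 to −0.25 for germ cells of many stages, −0.74 to −0.37 for early meiosis, 0.24 to 0.45 for Sertoli, 0.023 to 0.17 for Leydig, −0.12 to −0.081 for peritubular, −0.072 to 0.076 for macrophage, 0.071 to 0.13 for endothelial, −0.035 to 0.76 for mast cell, 0.15 to 0.27 for neuron and −0.11 to 0.12 for red blood cell genes. Relative to the germ cell sum, log2 ratios ranged from 0.16 to 0.24 for *Kit*, −0.22 to 0.13 for *Sohlh1*, 0.096 to 0.24 for *Sohlh2*, −0.50 to 0.27 for *Dmrtb1*, 0.13 to 0.62 for *Dmrt1* and −0.27 to 0.45 for *Uchl1*. The cause of these shifts was not tested.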
